A study of Mus musculus with 2 samples.

Results

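The oxidative phosphorylation transcripts described here are the 96 genes whose symbols name a subunit or a complex I assembly factor of the respiratory chain or ATP synthase and that had at least 100 UMIs in the kept cells. UMIs, unique molecular identifiers, count captured RNA molecules. The symbol patterns covered mt-Nd, mt-Co, mt-Cytb and mt-Atp in the mitochondrial genome and Ndufa, Ndufb, Ndufc, Ndufs and Ndufv, Cox4 to Cox8, Uqcr and Atp5 in the nucleus. They matched 103 of the 32285 genes in the matrix, and 7 of these fell under the minimum. The 96 members were 13 mitochondrially encoded and 83 nuclear encoded genes. The genes nearest the minimum were Cox6b2 with 122 UMIs inside it and Cox7a1, Cox4i2 and Cox6a2 with 66, 46 and 36 UMIs outside it, while Cox7b2, Cox8b, Cox8c and Ndufa4l2 had 0 UMIs.

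The respiratory chain passes electrons from complex I, an NADH dehydrogenase, through complex III to complex IV, cytochrome c oxidase, and pumps protons across the inner mitochondrial membrane, and ATP synthase, complex V, uses that gradient to make ATP. Each of these complexes is assembled from subunits of both genomes: the mitochondrial DNA encodes core subunits, and nuclear genes encode the other subunits and the assembly factors. Mitochondrial genes are transcribed from a circular genome as long transcripts that are cut into separate RNAs, whereas each nuclear member has its own promoter. In developing T cells, mitochondrial metabolism is known to vary with activation and division.

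Cells came from the thymus of 2 C57BL/6 background mice, 1 Foxp3eGFPxLta-/- mouse (Lta-/- below) and 1 Foxp3eGFP mouse. Both carried the eGFP reporter of Foxp3, the transcription factor that defines regulatory T (Treg) cells, and the first also lacked Lta, the gene of lymphotoxin alpha. CD4+ CD8- CCR6- CD3e+ thymocytes with CD25 (encoded by Il2ra), eGFP or both were sorted, marked with a hashtag antibody for each mouse and pooled in 1 droplet capture, in which RNA was counted from its 3' end. With 1 mouse for each genotype and 1 capture there are no replicates, so no difference below carries a p-value, and every interval covers counting error only.

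Of 4798 barcodes, 4638 were kept, with 31129765 UMIs and a median of 5555 in each cell. By hashtag 2244 were Lta-/-, 2209 were Foxp3eGFP and 185 carried both hashtags. Kept cells had at most 10% of UMIs in mitochondrial genes, and the 13 genes that set this limit are the 13 mitochondrially encoded members themselves. Classes were formed by whether a cell had at least 1 UMI of a marker gene. A cell without a UMI may still express the gene, and deeper cells are detected more often: 3073 cells had a UMI of neither Foxp3 nor Il2ra although the sort required 1 of the 2 proteins. The classes of different markers hold the same cells and are not independent, and 644 cells had UMIs of both Tnfrsf9 and S1pr1. Values are shares of all UMIs of a class, or counts per 1000000 of them (CPM), and ratios are log2 ratios of CPM. A gene counted as past 1.5-fold among the 9762 genes with at least 100 UMIs. A lower limit, a log2 ratio of 0.32 in size, was used among the 4236 genes with at least 1000.

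Mitochondrially encoded members took up 512431 UMIs, 1.65% of all, and nuclear encoded members 723445 UMIs, 2.32% of all, or 0.708 mitochondrial UMIs for each nuclear one. The mitochondrial share of single kept cells had a median of 1.63%, a 5th percentile of 0.747% and a 95th percentile of 2.95%. The number of UMIs sets the precision of each ratio and, since counts were not scaled to transcript length, does not rank genes by expression. mt-Atp6, a proton channel subunit of complex V, had 93178 UMIs, and mt-Co1, the catalytic core of complex IV, had 79022. mt-Nd6, the complex I subunit encoded on the opposite strand to the other mitochondrial members, had 647. Among nuclear members Atp5e, a subunit of the ATP synthase stalk, had 25437 UMIs and Cox4i1, the regulatory subunit of complex IV, had 24927. The median nuclear member had 7555, and 78 of the 83 passed 1000. By complex there were 37 nuclear subunits and 7 mitochondrial ones of complex I, 8 assembly factors of complex I, 8 and 1 members of complex III, 13 and 3 of complex IV, and 17 and 2 of complex V. All Cox genes, Cox7a2l among them, were placed in complex IV by symbol alone, and counts for complex IV below include Cox7a2l. All 83 nuclear members were placed on the mouse build GRCm38.p6 by RefSeq, on 19 chromosomes, with 3 on the X chromosome.

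The nuclear encoded share differed most between cells with and without S1pr1 and between cells with and without Mki67, and the mitochondrial share between the Mki67 classes. For Mki67 the nuclear rank holds only without matching for depth: matched, the nuclear log2 ratio was 0.068, against -0.23 for S1pr1, 0.16 for Tnfrsf9 and -0.16 for Foxp3. The plot of shares by class shows both for all 7 comparisons. Total UMIs moved with the classes too. With cells divided into 10 equal classes by total UMIs, the mitochondrial share was 2.02% in the shallowest class, 1.73% in class 5 and 1.46% in the deepest. The nuclear share in the same classes was 1.93%, 2.09% and 2.72%. For depth-matched ratios, shares in cells without the marker were weighted over these depth classes by the UMIs of cells with it. Foxp3eGFP cells were weighted to Lta-/- cells in the same way. Depth-matched ratios are given where they differ by over 1.5 times.

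**Figure D1:**
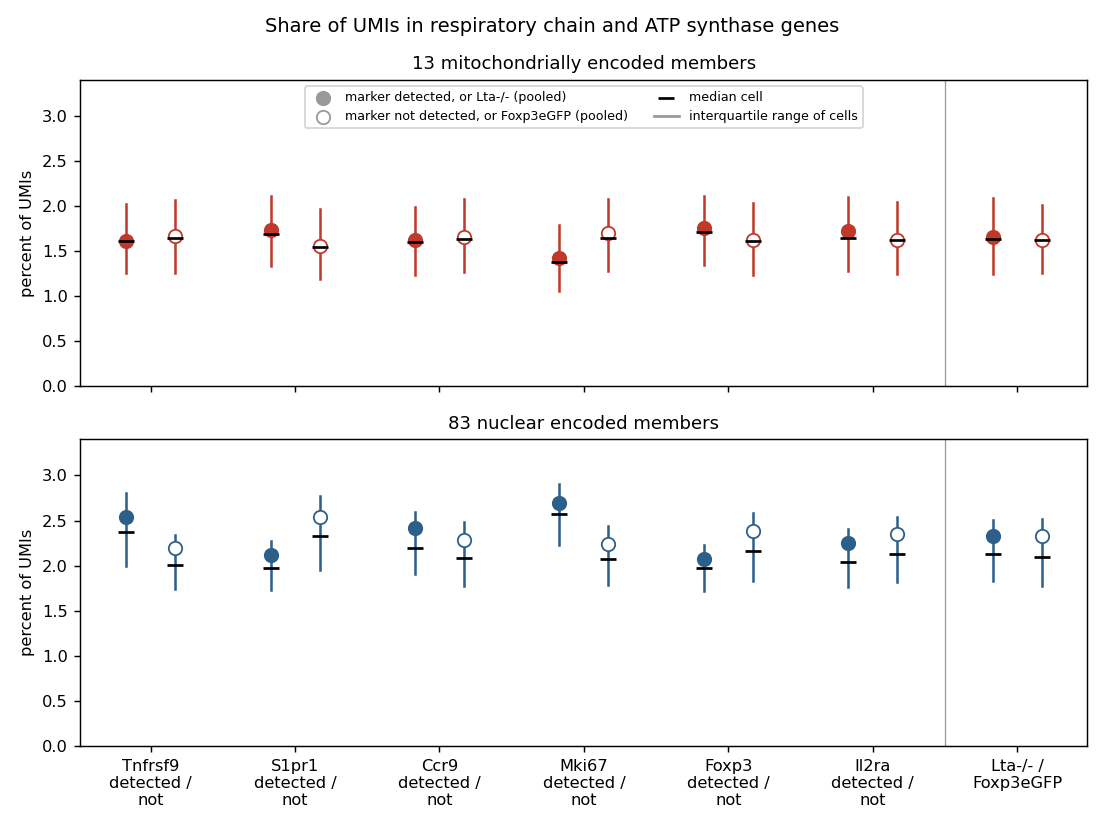
Percent of UMIs in mitochondrially encoded members (top) and nuclear encoded members (bottom) for each class, with filled circles for cells with the marker or Lta-/- cells, open circles for cells without it or Foxp3eGFP cells, black dashes for the median cell and lines for the interquartile range of cells. The nuclear share was 2.12% in S1pr1-detected cells and 2.54% in the others, and the 2 genotypes lay at the same level.

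S1pr1 encodes the sphingosine-1-phosphate receptor that guides mature thymocytes out of the thymus. Nuclear members made up 2.12% of UMIs in the 2491 S1pr1-detected cells and 2.54% in the 2147 others (log2 ratio -0.26, 95% interval -0.27 to -0.26). Median UMIs of a cell were 5334 and 5785 in these classes. 80 of the 83 lay below 0, at a median log2 ratio of -0.32, against -0.075 for all genes, of which 41.3% lay above 0. Mitochondrial members made up 1.73% and 1.56% (log2 ratio 0.15, 95% interval 0.14 to 0.16), and 11 of 13 lay above 0. The 2 classes held 0.817 and 0.613 mitochondrial UMIs for each nuclear UMI. Cells with more S1pr1 UMIs had lower nuclear shares: 2.54% at 0, 2.21% at 1, 2.19% at 2 and 2.02% at 3 or more.

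Past 1.5-fold, 9 of 83 nuclear members were lower in S1pr1-detected cells, where 10.3% of all genes were, and 0 were higher, where 5.48% were. Past the lower limit 37 of 78 were lower, where 23.3% of genes were. All 17 nuclear subunits of complex V lay below 0 (log2 ratio -0.31, 95% interval -0.32 to -0.30 for their sum), as did 36 of 37 subunits of complex I (-0.26), 7 of 8 of complex III (-0.25) and 12 of 13 of complex IV (-0.20). The 8 assembly factors of complex I had the lowest summed ratio, -0.52. Ndufaf2, which assists the assembly of complex I, was at 24.0 CPM in S1pr1-detected cells and 44.0 CPM in the others. Ndufaf4, another such factor, was at 42.3 CPM and 76.5 CPM in the same classes (log2 ratio -0.85, 95% interval -0.99 to -0.72). Atp5g1, 1 of 3 genes for the membrane ring subunit c of ATP synthase, was at 292 CPM and 500.1 CPM (log2 ratio -0.78, 95% interval -0.83 to -0.73). Ndufa12, an accessory subunit of complex I, was at 113 CPM and 190.1 CPM, and Ndufab1, the mitochondrial acyl carrier protein that is also part of complex I, at 124 CPM and 205 CPM.

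Cox7a2l, Uqcrh and Ndufa6 were the 3 nuclear members on the other side. Cox7a2l, a relative of the complex IV subunit gene Cox7a2, was at 553 CPM in S1pr1-detected cells and 394 CPM in the others (log2 ratio 0.49, 95% interval 0.44 to 0.54). It was the only nuclear member of 78 past the lower limit in this direction, where 12.5% of genes were. Uqcrh, the hinge subunit of complex III, was at 804 CPM and 707 CPM (log2 ratio 0.18), and Ndufa6, an accessory subunit of complex I, at 292 CPM and 252 CPM (log2 ratio 0.21). Among the mitochondrial members, mt-Co1 was at 2868 CPM and 2192 CPM (log2 ratio 0.39, 95% interval 0.37 to 0.41) and mt-Nd5, a proton-pumping subunit of complex I, at 349.9 CPM and 278 CPM. Both were past the lower limit, and the other 10 mitochondrial members with at least 1000 UMIs were not.

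Tnfrsf9 encodes the costimulatory receptor 4-1BB, which T cells raise after antigen receptor signals. Nuclear members made up 2.54% of UMIs in the 1553 Tnfrsf9-detected cells and 2.19% in the 3085 others (log2 ratio 0.21, 95% interval 0.20 to 0.21). Median UMIs of a cell were 6351 and 5175 in these classes. 75 of 83 lay above 0, at a median log2 ratio of 0.22, against 0.029 for all genes, of which 54.1% lay above 0. By the number of Tnfrsf9 UMIs the nuclear share was 2.19% at 0, 2.29% at 1, 2.47% at 2 and 2.69% at 3 or more. Depth rose over the same steps, with median UMIs of 5175, 5576, 5769 and 7153.5, and these shares were not matched for it. Mitochondrial members made up 1.61% and 1.67% (log2 ratio -0.052, 95% interval -0.060 to -0.044; -0.024 matched for depth). Their direction was mixed, 7 above and 6 below 0, and the median over the 13 was 0.018, opposite in sign to the sum. In cells with 3 or more Tnfrsf9 UMIs the mitochondrial share was 1.52%.

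Past 1.5-fold, 5 of 83 nuclear members were higher with Tnfrsf9, where 7.45% of all genes were, and 0 were lower, where 7.32% were. Past the lower limit 23 of 78 were higher, where 17.8% of genes were, and 0 lower, where 13.1% were. All 8 assembly factors lay above 0 (summed log2 ratio 0.47), with 16 of 17 nuclear subunits of complex V (0.27), 7 of 8 of complex III (0.21), 34 of 37 of complex I (0.18) and 10 of 13 of complex IV (0.15). The 5 highest nuclear members with at least 1000 UMIs included Ndufaf4 at 80.2 CPM in Tnfrsf9-detected cells and 46.0 CPM in the others (log2 ratio 0.80, 95% interval 0.67 to 0.93), Ndufaf2 at 45.8 CPM and 26.3 CPM, and Atp5g1 at 523 CPM and 313 CPM (log2 ratio 0.74, 95% interval 0.69 to 0.79). Ndufa12 was at 196 CPM and 123 CPM. Cox7a2l was the lowest nuclear member, at 423 CPM and 507 CPM (log2 ratio -0.26, 95% interval -0.31 to -0.21). The abundant subunits Cox4i1 and Cox8a of complex IV lay close to 0, with log2 ratios of 0.045 and -0.013. Among mitochondrial members mt-Nd1, a membrane subunit of complex I, was at 871 CPM with Tnfrsf9 and 786 CPM without (log2 ratio 0.15), while mt-Co1 was at 2313 CPM and 2676 CPM (log2 ratio -0.21).

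**Figure D2:**
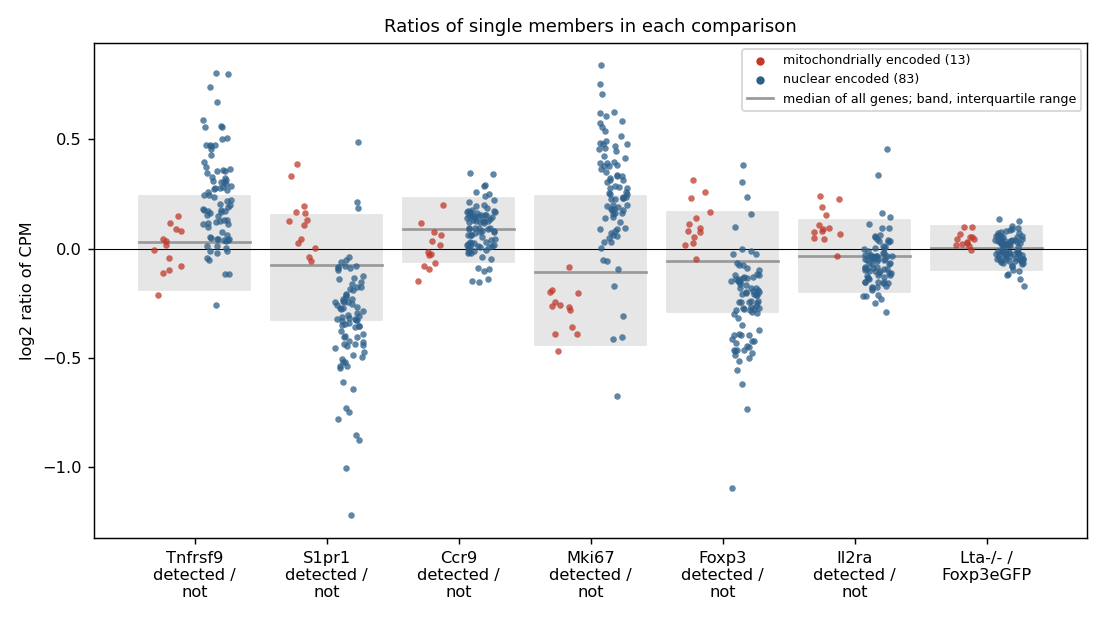
Log2 ratio of CPM for every mitochondrially encoded (red) and nuclear encoded (blue) member in each comparison, with the median and interquartile range of the 9762 genes with at least 100 UMIs in grey. In the S1pr1 comparison 80 of 83 nuclear members lay below 0, and in the Mki67 comparison all 13 mitochondrial members did.

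Mki67 encodes a protein of dividing cells. The 415 Mki67-detected cells had a median of 13565 UMIs, against 5354 in the 4223 others. Nuclear members made up 2.69% of their UMIs, against 2.24% in the others (log2 ratio 0.27, 95% interval 0.26 to 0.28), and mitochondrial members 1.42%, against 1.70% (log2 ratio -0.26, 95% interval -0.27 to -0.25). All 13 mitochondrial members lay below 0 and 75 of 83 nuclear members above it, where 41.1% of all genes lay above 0. The median of all genes was -0.11, so that the medians of -0.26 for mitochondrial and 0.25 for nuclear members lie on either side of it. Matched for depth, the nuclear ratio was 0.068 and the mitochondrial one -0.18. In cells with 0, 1, 2 and 3 or more Mki67 UMIs the mitochondrial share was 1.70%, 1.86%, 1.29% and 1.36%. The classes with 1 and 2 UMIs held 89 and 30 cells.

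Past 1.5-fold, 6 of 83 nuclear members were higher with Mki67, where 12.4% of all genes were, and 1 was lower, where 17.3% were. Past the lower limit 28 of 78 nuclear members were higher (background 20.8%) and 2 lower, and 3 of 12 mitochondrial members were lower (background 26.8%). Complex IV had the highest summed ratio of nuclear subunits, 0.36, against 0.28 for complex V, 0.22 for complex I and 0.12 for complex III. These sums by complex and the counts of members before them were not matched for depth. Cox8a, a small membrane subunit of complex IV, was at 1018 CPM in Mki67-detected cells and 569 CPM in the others (log2 ratio 0.84, 95% interval 0.79 to 0.88), Cox7a2, another, at 598 CPM and 355 CPM (log2 ratio 0.75), and Uqcr10, a small subunit of complex III, at 434 CPM and 266 CPM (log2 ratio 0.71). Matched for depth, Cox8a was at 0.58 and Cox7a2 at 0.55 on the log2 scale. Cox7a2l was again the lowest nuclear member, at 321 CPM and 512 CPM (log2 ratio -0.67, 95% interval -0.74 to -0.60; -0.27 matched for depth). Uqcrh was at 600.4 CPM and 794 CPM (log2 ratio -0.40). Members with the largest differences by Tnfrsf9 depended on depth here: Atp5g1 had a log2 ratio of 0.18, but -0.40 matched for depth, and Ndufa12 had 0.35, but -0.16.

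Ccr9 encodes a chemokine receptor of immature thymocytes. Nuclear members made up 2.42% of UMIs in the 1149 Ccr9-detected cells and 2.29% in the 3489 others (log2 ratio 0.079, 95% interval 0.072 to 0.086). Median UMIs of a cell were 5902 and 5445 in these classes. The median over nuclear members, 0.094, was close to that of all genes, 0.087. Mitochondrial members made up 1.62% and 1.66% (log2 ratio -0.035, 95% interval -0.044 to -0.026). Matched for depth, the nuclear ratio was 0.038 and the mitochondrial one -0.0077, and in Foxp3eGFP cells alone the mitochondrial ratio was 0.013. No member passed 1.5-fold, where 4.16% of all genes were higher and 3.19% lower, and 1 of 78 was higher past the lower limit, where 7.67% of genes were, and 0 lower, where 4.53% were. That member was Uqcrq, a subunit of complex III, at 433 CPM with Ccr9 and 341 CPM without (log2 ratio 0.34, 95% interval 0.29 to 0.40). Atp5g3 was at 413 CPM and 347 CPM, and mt-Co1 at 2354 CPM and 2609 CPM (log2 ratio -0.15).

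Cells with a UMI of only 1 of the 4 state markers form classes that share no cell. In the 629 with Tnfrsf9 alone the mitochondrial and nuclear shares were 1.54% and 2.72%. They were 1.79% and 1.95% in the 1449 with S1pr1 alone, 1.62% and 2.25% in the 436 with Ccr9 alone, and 1.37% and 2.83% in the 102 with Mki67 alone. The 651 cells with none of the 4 had 1.70% and 2.16%. Ranked by the nuclear share, these 5 classes stood in the reverse of their order by the mitochondrial share. Both shares have the same denominator, and the classes differed in depth. Median UMIs of a cell were 13144.5 with Mki67 alone, 6363 with Tnfrsf9 alone and 5382.5 with Ccr9 alone. They were 4740 with none of the 4 and 4961 with S1pr1 alone. These shares were not matched for depth.

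**Figure D3:**
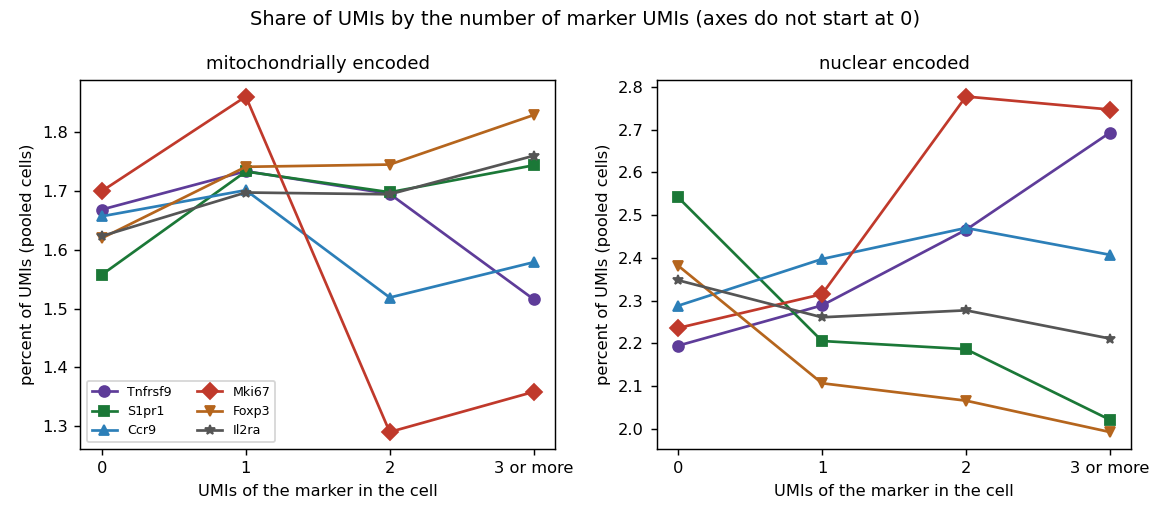
Percent of UMIs in mitochondrially encoded (left) and nuclear encoded (right) members in cells with 0, 1, 2 and 3 or more UMIs of each marker; the axes do not start at 0. The nuclear share was higher at each step of Tnfrsf9 UMIs and lower at each step of S1pr1 and Foxp3 UMIs. Shares were not matched for depth.

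The Foxp3 and S1pr1 classes share cells: 765 of the 950 Foxp3-detected cells also had a S1pr1 UMI. Nuclear members made up 2.08% of UMIs in Foxp3-detected cells and 2.38% in the 3688 others (log2 ratio -0.20, 95% interval -0.21 to -0.19). Median UMIs of a cell were 5236.5 and 5642 in these classes. 78 of 83 lay below 0, at a median of -0.24, against -0.057 for all genes, of which 43.3% lay above 0. Mitochondrial members made up 1.76% and 1.62% (log2 ratio 0.12, 95% interval 0.11 to 0.13), with 12 of 13 above 0. Within S1pr1-detected cells the log2 ratios for Foxp3 were -0.090 for nuclear and 0.066 for mitochondrial members, and within cells without S1pr1 -0.17 and 0.088, a split made after seeing the data. In cells with none of the 4 state markers, 81 with and 570 without Foxp3, the nuclear ratio was -0.15 and the mitochondrial one was -0.039.

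Past 1.5-fold, 3 of 83 nuclear members were lower with Foxp3, where 9.96% of all genes were, and 0 higher, where 5.07% were. Past the lower limit 22 of 78 were lower, where 18.5% of genes were, and 1, Cox7a2l, was higher, where 10.2% were. Ndufaf2 was at 21.9 CPM in Foxp3-detected cells and 36.5 CPM in the others, Ndufab1 at 114 CPM and 175 CPM, and Cox5a, a nuclear subunit of complex IV, at 310.3 CPM and 456 CPM (log2 ratio -0.56, 95% interval -0.63 to -0.49). Cox7a2l was at 585 CPM and 449.7 CPM (log2 ratio 0.38, 95% interval 0.32 to 0.44), Uqcrh at 894 CPM and 725 CPM, and Ndufa6 at 311 CPM and 264 CPM. mt-Co1 was at 3013 CPM and 2428 CPM (log2 ratio 0.31).

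Il2ra encodes CD25, the alpha chain of the IL-2 receptor. Nuclear members made up 2.25% of UMIs in the 1041 Il2ra-detected cells and 2.35% in the 3597 others (log2 ratio -0.064, 95% interval -0.072 to -0.056), at a median of -0.064, against -0.033 for all genes. Median UMIs of a cell were 5861 and 5445. Mitochondrial members made up 1.72% and 1.62% (log2 ratio 0.083, 95% interval 0.074 to 0.093), with 12 of 13 above 0, where 43.9% of all genes were. Without cells with at least 2 UMIs of other lineage markers the mitochondrial ratio was -0.0064 and the nuclear one -0.015, and in cells without S1pr1 UMIs the nuclear ratio was 0.0017. Other lineage markers here and below are those of B cells, plasma cells, myeloid cells, erythroid cells and double-positive thymocytes. They leave out gamma-delta T, NK and stroma markers. The limit of 2 UMIs took out 560 of 1041 cells with and 1778 of 3597 without Il2ra. It took out 321 of 415 cells with and 2017 of 4223 without Mki67, classes that differ in depth. Whether the cells taken out belonged to other lineages was not tested. No member passed 1.5-fold, where 4.26% of all genes were higher and 6.15% lower, and 1 of 78 nuclear members was higher past the lower limit, where 6.4% of genes were, and 0 lower, where 8.38% were. That member was Ndufaf4, at 74.4 CPM with Il2ra and 54.3 CPM without (log2 ratio 0.46, 95% interval 0.31 to 0.60). In cells with no state marker, 109 with and 542 without Il2ra, its ratio was -0.39. Ndufb11, a complex I subunit on the X chromosome, was the lowest, at 257 CPM and 314 CPM (log2 ratio -0.29, 95% interval -0.36 to -0.22). Split by both gate genes, the 426 cells with Foxp3 and Il2ra UMIs had mitochondrial and nuclear shares of 1.78% and 2.05%, the 524 with Foxp3 alone 1.73% and 2.10%, the 615 with Il2ra alone 1.68% and 2.38%, and the 3073 with neither 1.61% and 2.38%. The nuclear share was lower in both classes with Foxp3 UMIs than in both without.

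Between the mice, nuclear members made up 2.33% of UMIs in the 2244 Lta-/- cells and 2.33% in the 2209 Foxp3eGFP cells (log2 ratio -0.0010, 95% interval -0.0079 to 0.0059). Mitochondrial members made up 1.66% and 1.62% (log2 ratio 0.031, 95% interval 0.022 to 0.039), and 12 of 13 lay above 0, where 50.7% of all genes did. The mitochondrial ratio was 0.014 matched for depth and -0.0072 without cells with at least 2 UMIs of other lineage markers. That limit took out 1117 of 2244 Lta-/- and 1086 of 2209 Foxp3eGFP cells. The nuclear ratio was 0.033 matched for depth and 0.022 with cells thinned to 3000 UMIs, both above the counting interval given. The interval of the nuclear ratio covers counting error only and not the spread between mice, which was not measured, so a difference caused by Lta cannot be told apart from one between these 2 animals. No member passed the lower limit, where 0.826% of genes were higher and 3.4% lower, and none passed 1.5-fold, where 1.42% and 2.21% did. Nuclear members ran from Ndufb10, a complex I subunit at 175 CPM in Lta-/- and 197 CPM in Foxp3eGFP cells (log2 ratio -0.17, 95% interval -0.25 to -0.095), to Ndufv3, another, at 209.8 CPM and 191 CPM (log2 ratio 0.13, 95% interval 0.060 to 0.21). mt-Nd2, a membrane subunit of complex I, was at 834 CPM and 779.8 CPM. Lta itself had 72 UMIs in cells labelled Lta-/- and 509 in cells labelled Foxp3eGFP. The nuclear differences by marker were found in each mouse: the log2 ratio for S1pr1 was -0.25 in Lta-/- and -0.28 in Foxp3eGFP cells, that for Tnfrsf9 0.22 and 0.21, and that for Foxp3 -0.16 and -0.22.

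The 13 mitochondrial genes did not have the same ratio. With S1pr1, complex IV subunits of the mitochondrial genome had a summed log2 ratio of 0.23, complex I 0.10, complex V 0.13 and mt-Cytb, the complex III subunit, 0.026. Beside Tnfrsf9 the same sums were -0.14, 0.041, -0.037 and 0.018, and beside Mki67 -0.26, -0.29, -0.27 and -0.20. mt-Co1 lay furthest from 0 with S1pr1, Foxp3 and Tnfrsf9. mt-Nd1, near the start of the heavy-strand transcript, lay on the other side of 0 from mt-Co1 with S1pr1 (-0.055), Foxp3 (log2 ratio -0.045, 95% interval -0.092 to 0.00030) and Tnfrsf9 (0.15). Some neighbouring genes overlap, mt-Atp8 and mt-Atp6 by 43 bases, mt-Nd5 and mt-Nd6 by 14, mt-Nd4l and mt-Nd4 by 7 and mt-Atp6 and mt-Co3 by 1, and how the counting divided reads between them is not given in the sources used here. Whether strand was used is not given either, so counts of mt-Nd5 and mt-Nd6, on opposite strands, carry that uncertainty. mt-Nd6 had intervals that reached across 0 except with Mki67 (log2 ratio -0.47, 95% interval -0.80 to -0.15).

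**Figure D4:**
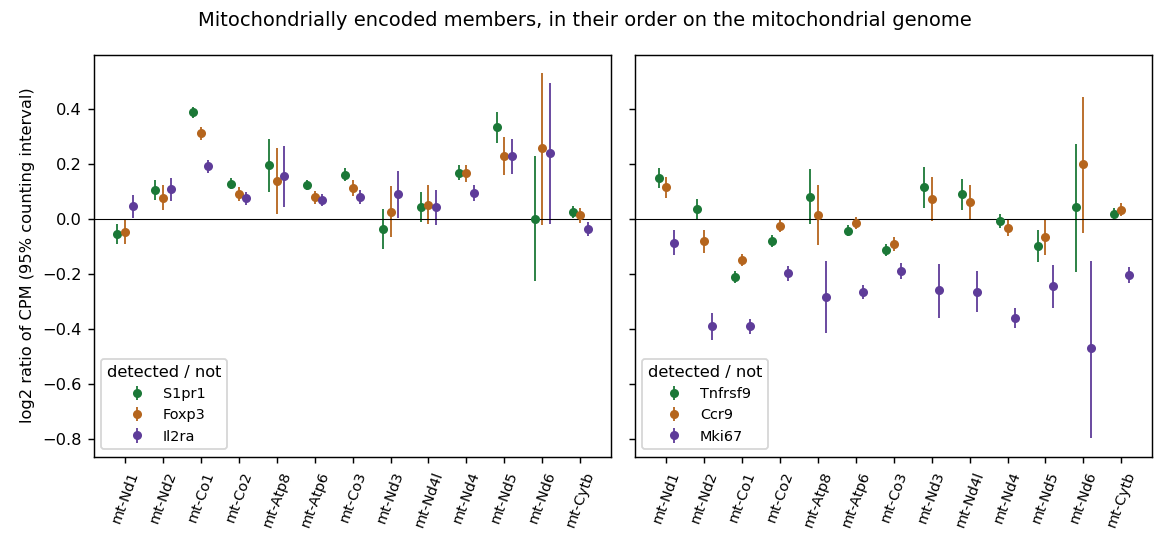
Log2 ratio of CPM, cells with the marker over cells without, for the 13 mitochondrially encoded members in their order on the mitochondrial genome, with 95% counting intervals as bars. mt-Co1 stood at 0.39 with S1pr1 and -0.21 with Tnfrsf9, and mt-Nd6, with 647 UMIs, has the widest bars.

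Subunits with several genes showed how members differ among themselves. Atp5g1, Atp5g2 and Atp5g3 encode the same mature subunit c with different import sequences. With S1pr1 their log2 ratios were -0.78, -0.081 and -0.54, with Tnfrsf9 0.74, 0.13 and 0.43, and with Foxp3 -0.51, -0.011 and -0.47. Atp5g2, with 20782 UMIs the most counted of the 3, was at 649 CPM with S1pr1 and 687 CPM without. The ratio of Atp5g1 with S1pr1 was -0.84 in Lta-/- and -0.79 in Foxp3eGFP cells, and that of Atp5g2 -0.065 in Lta-/- and -0.10 in Foxp3eGFP cells. Cox7a2 and its relative Cox7a2l lay on opposite sides of 0 with S1pr1 (-0.27 and 0.49), Foxp3 (-0.27 and 0.38), Tnfrsf9 (0.15 and -0.26) and Mki67 (0.75 and -0.67). The ratio of Cox7a2l with S1pr1 was 0.55 in Lta-/- and 0.46 in Foxp3eGFP cells. Many of these genes have processed pseudogenes, and reads from near-identical copies may have been split or dropped in the counting, so differences between isoforms carry that uncertainty.

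**Figure D5:**
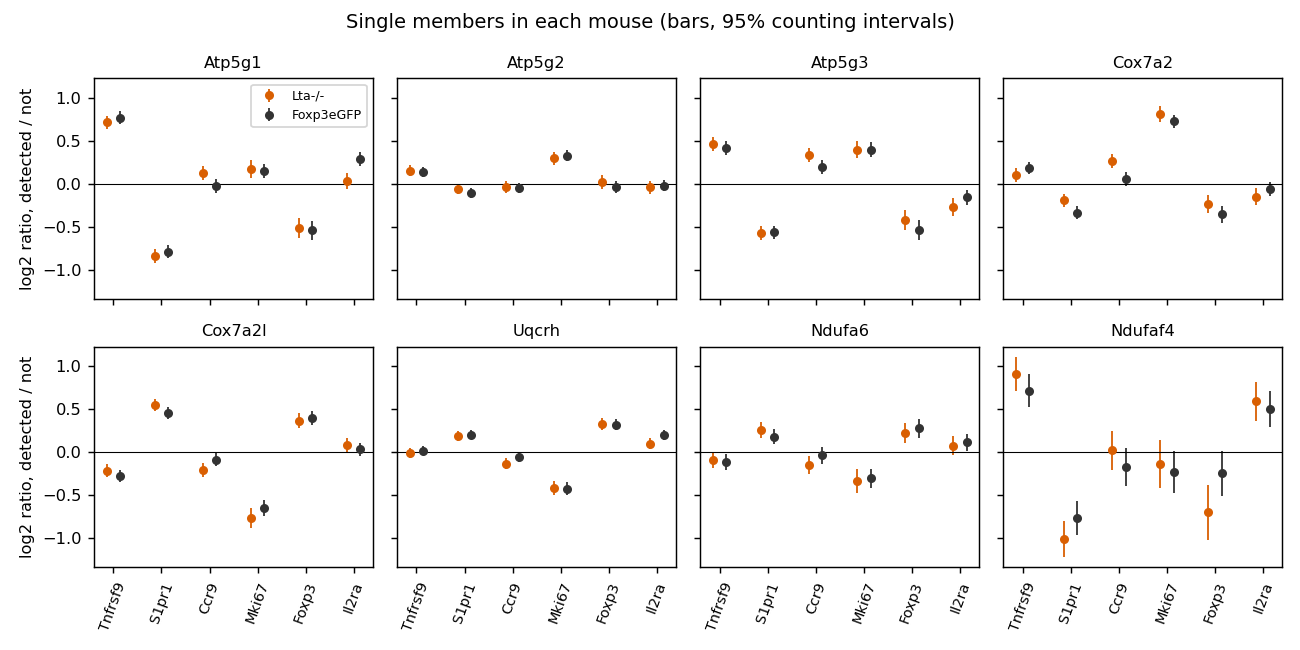
Log2 ratio of CPM, cells with the marker over cells without, in Lta-/- cells (orange, left) and Foxp3eGFP cells (black, right) for 8 nuclear members, with 95% counting intervals as bars. Cox7a2l lay above 0 with S1pr1 and Foxp3 and below 0 with Tnfrsf9 and Mki67 in each mouse.

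Tissue-restricted isoforms of complex IV were rare. Cox6b2, the testis isoform, had 38 UMIs in S1pr1-detected cells and 84 in the others (log2 ratio -1.22, 95% interval -1.81 to -0.65), beside -0.24 for the common isoform Cox6b1. Cox4i2, an isoform known from lung, had 36 UMIs in 1553 Tnfrsf9-detected cells and 10 in 3085 others, and Cox7a1, the heart and muscle isoform, 43 and 23. Of the 36 UMIs of Cox6a2, another heart and muscle isoform, 21 came from 1 cell.

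Promoter sequences are shown to set the 3 nuclear members that lay above 0 with S1pr1 beside others. RefSeq (GRCm38.p6) held a window of 300 bases, 250 before and 50 after an annotated start, for 71 of the 83 nuclear members. The motif of NRF1, a nuclear regulator of respiratory genes, was searched on both strands as GCGCA, any base, GCGC. It was found in 17 of 71 members (23.9%), against 13.4% of 7742 genes with at least 100 UMIs and 5.19% of all 27025 genes with a window. The ETS-type motif CCGGAAG was found in 17 (23.9%), against 24.0% and 9.93%, the YY1 motif AAGATGGCG in 8 (11.3%), against 4.44% and 1.64%, and the ERR motif TCAAGGTCA in 1 (1.41%), against 0.336% and 0.466%. The median log2 ratio with S1pr1 was -0.35 for the 17 members with NRF1 letters and -0.31 for the 54 without, and with Tnfrsf9 0.28 and 0.20. These differences are small beside the range of the members.

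The 150 bases before the start follow in lower case, 5' to 3' on the gene's strand, with matches to any of the 4 motifs in capitals, for the 2 members with the most UMIs among the 12 whose stretch holds the NRF1 letters (Atp5g2 at chr15:102671048-102671197 and Atp5h at chr11:115419920-115420069) and for Cox7a2l (chr17:83514334-83514483), Uqcrh (chr4:116075071-116075220) and Ndufa6 (chr15:82354292-82354441), all on the minus strand. The first pair had log2 ratios of -0.081 and -0.13 with S1pr1, the other 3 0.49, 0.18 and 0.21.
Atp5g2: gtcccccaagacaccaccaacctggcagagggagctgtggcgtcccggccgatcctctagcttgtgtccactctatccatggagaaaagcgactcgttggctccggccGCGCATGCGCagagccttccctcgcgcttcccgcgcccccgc
Atp5h: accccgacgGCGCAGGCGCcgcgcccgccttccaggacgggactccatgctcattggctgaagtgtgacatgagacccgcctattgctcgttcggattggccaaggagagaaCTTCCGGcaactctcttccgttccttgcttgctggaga
Cox7a2l: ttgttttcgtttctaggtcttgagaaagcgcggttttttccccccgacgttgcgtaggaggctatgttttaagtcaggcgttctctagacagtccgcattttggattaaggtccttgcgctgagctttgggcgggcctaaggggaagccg
Uqcrh: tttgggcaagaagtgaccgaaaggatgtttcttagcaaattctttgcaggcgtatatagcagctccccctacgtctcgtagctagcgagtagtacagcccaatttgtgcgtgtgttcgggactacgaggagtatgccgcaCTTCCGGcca
Ndufa6: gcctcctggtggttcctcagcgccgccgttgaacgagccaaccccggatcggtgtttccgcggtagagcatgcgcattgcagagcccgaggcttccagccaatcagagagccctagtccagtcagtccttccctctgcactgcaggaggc

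Atp5g2 and Atp5h carry NRF1 letters in this stretch, and Atp5h and Uqcrh the ETS letters on the other strand. Cox7a2l and Ndufa6 have none of the 4 motifs there, though the longer window of Ndufa6 holds NRF1 letters. This says only that these letters are absent from this stretch. A match is not evidence of binding.

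Related gene lists were read in the same classes, each as the log2 ratio of its summed UMIs. Complex II, the only respiratory complex with all subunits nuclear encoded, was at -0.32 with S1pr1, 0.17 with Tnfrsf9, 0.25 with Mki67 and -0.27 with Foxp3, and none of its 4 genes passed 1.5-fold in these comparisons. Cycs (cytochrome c) and Cyc1, the cytochrome of complex III, were together at -0.67 with S1pr1, 0.58 with Tnfrsf9, 0.52 with Mki67 and -0.44 with Foxp3. Cycs was at 149 CPM in S1pr1-detected cells and 237 CPM in the others, and Cyc1 at 95.1 CPM and 149 CPM. Assembly factors of cytochrome oxidase, 16 genes, were at -0.21 with S1pr1, 0.14 with Tnfrsf9, 0.070 with Mki67 and -0.19 with Foxp3. With S1pr1, 3 of the 16 were lower past 1.5-fold, where 10.3% of all genes were: Cox10, which makes haem for the enzyme (-0.69), Sco2, a copper carrier (-0.73), and Coa7 (-0.75).

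Genes for mitochondrial DNA upkeep and expression, 17 tested, were at -0.28 with S1pr1, 0.27 with Tnfrsf9, 0.18 with Mki67 and -0.20 with Foxp3. With Tnfrsf9, 5 of the 17 were higher past 1.5-fold, where 7.45% of all genes were: Twnk, the mitochondrial helicase, at 17.5 CPM with Tnfrsf9 and 9.68 CPM without, Lrpprc, which stabilises mitochondrial mRNA (0.69), Tefm (0.79), Fastkd2 (0.80) and Top1mt (0.86). The 78 genes of the mitochondrial ribosome were at -0.34 with S1pr1, 0.23 with Tnfrsf9, 0.29 with Mki67 and -0.26 with Foxp3, and 11 of 78 were lower past 1.5-fold with S1pr1, near the 10.3% of all genes. Import and folding genes, 22 tested, were at -0.52 with S1pr1, 0.49 with Tnfrsf9, 0.18 with Mki67 and -0.28 with Foxp3. All 22 lay above 0 with Tnfrsf9, where 54.1% of all genes did. Hspd1, the mitochondrial chaperonin, named after its value was seen, was at 423 CPM with Tnfrsf9 and 193 CPM without. TCA cycle genes, 17 tested, were at -0.25 with S1pr1, 0.14 with Tnfrsf9, 0.12 with Mki67 and -0.19 with Foxp3. Past 1.5-fold, 1 of 17 was lower with S1pr1, where 10.3% of all genes were, and 2 lower with Foxp3, where 9.96% were. With Mki67, 2 were higher, where 12.4% of all genes were. Fh1, fumarate hydratase, was among them each time, at -0.90 with S1pr1, -0.67 with Foxp3 and 1.00 with Mki67. The Mki67 value was not matched for depth.

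Glycolysis genes, 19 tested, were at -0.51 with S1pr1, 0.28 with Tnfrsf9, 0.34 with Mki67 and -0.41 with Foxp3. With S1pr1, 7 of 19 were lower past 1.5-fold, where 10.3% of all genes were, among them Hk2, a hexokinase (1.44 CPM in S1pr1-detected cells and 6.53 CPM in the others), and Tpi1 (36.4 CPM and 72.7 CPM). With Mki67, 5 of 19 were higher, where 12.4% of all genes were, and 3 lower, where 17.3% were, and the median over the list was 0.014. Of 8 tested regulators of mitochondrial genes, 4 results past 1.5-fold are named after their values were seen. With S1pr1, 2 were lower, Pprc1 (-0.70) and Myc (-0.64), where 10.3% of all genes were. With Mki67, 1 was lower, where 17.3% of all genes were. It was Esrra (-0.62), with 61 UMIs in Mki67-detected cells, not matched for depth. With Il2ra, 1 was higher, where 4.26% of all genes were. It was Myc, at 84.9 CPM with Il2ra and 37.2 CPM without. Shares are relative to all UMIs, and cytosolic ribosomal protein genes, a large part of them, were at 0.12 with S1pr1, -0.046 with Tnfrsf9, -0.29 with Mki67 and 0.091 with Foxp3.

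Markers of other cells moved with several classes. The summed plasma cell markers were at 963 CPM with Mki67 and 142 CPM without, at 699.7 CPM with Ccr9 and 146 CPM without, at 439 CPM with S1pr1 and 153 CPM without, at 77.7 CPM with Tnfrsf9 and 435 CPM without, and at 119 CPM in Lta-/- and 499 CPM in Foxp3eGFP cells; 5 of the listed genes had at least 100 UMIs. Of these genes, Iglc2 had 3586 UMIs with Mki67 and 13 without, and 3587 with Ccr9 and 12 without. It had 3585 with S1pr1 and 14 without, and 2 with Tnfrsf9 and 3597 without. The same cells therefore held most of its UMIs in each of these comparisons, which are not separate signals. With S1pr1 the summed log2 ratio of the plasma cell list was 1.52 and its median 0.37. Double-positive thymocyte markers, 5 tested, were at 74.5 CPM with S1pr1 and 169.8 CPM without, and at 207 CPM with Mki67 and 100.3 CPM without. Gamma-delta T markers, 4 tested, were at a log2 ratio of 1.62 with Mki67 and -1.03 in Lta-/- over Foxp3eGFP cells, where double-positive markers were at -0.42. With Foxp3 the summed log2 ratios were -1.32 for plasma cell, -1.84 for NK, -1.24 for gamma-delta T, -0.86 for double-positive and -0.64 for myeloid markers. With Il2ra they were -1.53, 1.06, 0.51, 0.34 and -0.68 in the same order. Some medians over the tested genes differed from these sums in sign or size. With Il2ra the median was 0.12 for NK and -0.26 for double-positive markers, of which 2 of 5 lay above 0. Between the mice the double-positive median was 0.047, with 3 of 5 above 0. Myeloid markers, 5 tested, were at 114 CPM with S1pr1 and 252 CPM without. Pax5 of the B cell list, Hbb-bs, Hba-a2 and Alas2 of the erythroid list and Krt5, Col3a1 and Pdgfra of the stroma list were at 0. The 99 cells with at least 10 UMIs of B cell, plasma cell, myeloid, erythroid and double-positive markers were left out in a further run. This limit was set after seeing the data. Nuclear log2 ratios were then -0.26 for S1pr1, 0.22 for Tnfrsf9, 0.24 for Mki67 and -0.20 for Foxp3. Gamma-delta T, NK and stroma markers were not part of this filter, so such cells stayed in. Dissociation stress genes, 11 tested, had median log2 ratios of 0.16 with S1pr1, -0.043 with Tnfrsf9, -0.67 with Mki67 and 0.32 with Foxp3. Their summed ratios differed from these in sign or size, at -0.17 with S1pr1, 0.26 with Tnfrsf9, 0.070 with Mki67 and 0.0094 with Foxp3. With Mki67, 6 of 11 were lower past 1.5-fold, where 17.3% of all genes were, and 1 higher, where 12.4% were. These counts were not matched for depth. Hsp90aa1, a chaperone, was at 1.06 and Jun, an immediate early gene, at -1.14, both named after their values were seen. The part of these genes in the results was not tested.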

How the data were processed

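The authors deposited a single matrix of raw UMI counts, unnormalized by its whole-number values, that holds mRNA and hashtag features for all barcodes. The submitters' processing notes name Cell Ranger 6.0.1, mm10 and GRCm38; for alignment settings, annotation release, strandedness and cell calling, the step is not given in the sources used here. Kept cells had 500 or more detected genes and no more than 10% of UMIs from mitochondrial genes; the 160 dropped barcodes had a median of 12.6%. Mouse of origin required 10 or more counts of 1 hashtag and 80% of all hashtag counts. Hashtag numbering differs between feature names and protocol labels, and genotype follows the feature names. No doublet caller was run. The 185 cells with both hashtags (3.99%, median 10532 UMIs) entered no genotype comparison but stayed in the others.

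Class sums of UMIs gave CPM, and each log2 ratio carries a 95% interval for counting error, exact and conditional on the summed count (Clopper-Pearson). No p-value was computed, because cells of 1 capture are not replicates. The ratio and its interval were run on simulated class sums with known ratios and counting error alone. That simulation held no spread between cells, so it cannot test the comparisons themselves. Genes named are the 13 mitochondrial members, the 12 nuclear members with the most UMIs, in each comparison the 5 highest and 5 lowest nuclear members with at least 1000 UMIs, those next to the minimum of 100 UMIs, isoform families, and listed genes past 1.5-fold. Alternatives were cell filters, thinning to 3000 UMIs, depth matching, class thresholds, hashtag limits, single mice and marker-based subsets. The members and lists were chosen with earlier results of these data known. Software was Python 3.11.15 with numpy 2.4.6, scipy 1.17.1, pandas 2.3.3 and matplotlib 3.10.9.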

Additional observations from a re-analysis of the deposited data

Results flagged for a closer look

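In the Ccr9 comparison the 2 mice lay on opposite sides of 0. The log2 ratio of the mitochondrial sum, cells with Ccr9 over cells without, was -0.099 in Lta-/- cells and 0.013 in Foxp3eGFP cells. mt-Atp6 showed the same split, at -0.076 in Lta-/- and 0.032 in Foxp3eGFP cells. The difference between the mice was not tested, since each genotype is 1 animal.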

How the results depend on the processing

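Values are log2 ratios of summed UMIs. Of 191 recomputed sums, 81 stayed within the counting interval of the value above, 104 left it and 6 changed sign; the nuclear ratio between the genotypes, whose interval holds 0, is not among those 6. Without the limit on the mitochondrial share, the mitochondrial ratio was -0.062 for Tnfrsf9, 0.13 for S1pr1, -0.047 for Ccr9, -0.23 for Mki67, 0.062 for Il2ra. With a limit of 5% mitochondrial UMIs, the mitochondrial ratio was -0.038 for Tnfrsf9, -0.25 for Mki67. Matched for depth, the mitochondrial ratio was -0.024 for Tnfrsf9, 0.13 for S1pr1, -0.0077 for Ccr9, -0.18 for Mki67, 0.092 for Foxp3, 0.014 for genotype, and the nuclear ratio was 0.16 for Tnfrsf9, -0.23 for S1pr1, 0.038 for Ccr9, 0.068 for Mki67, -0.16 for Foxp3, 0.033 for genotype. With classes formed at 2 UMIs, the mitochondrial ratio was -0.10 for Tnfrsf9, -0.091 for Ccr9, -0.33 for Mki67, 0.13 for Foxp3, 0.097 for Il2ra, and the nuclear ratio was 0.27 for Tnfrsf9, -0.29 for S1pr1, 0.088 for Ccr9, 0.30 for Mki67, -0.23 for Foxp3. In Lta-/- cells alone, the mitochondrial ratio was 0.13 for S1pr1, -0.099 for Ccr9, -0.31 for Mki67, and the nuclear ratio was 0.22 for Tnfrsf9, -0.25 for S1pr1, 0.11 for Ccr9, 0.28 for Mki67, -0.16 for Foxp3, -0.076 for Il2ra. In Foxp3eGFP cells alone, the mitochondrial ratio was -0.043 for Tnfrsf9, 0.17 for S1pr1, 0.013 for Ccr9, -0.23 for Mki67, 0.099 for Il2ra, and the nuclear ratio was -0.28 for S1pr1, 0.26 for Mki67, -0.22 for Foxp3, -0.044 for Il2ra. With cells of another state marker left out, the mitochondrial ratio was -0.15 for Tnfrsf9, 0.069 for S1pr1, -0.076 for Ccr9, -0.32 for Mki67, -0.039 for Foxp3, 0.070 for Il2ra, and the nuclear ratio was 0.33 for Tnfrsf9, -0.15 for S1pr1, 0.060 for Ccr9, 0.39 for Mki67, -0.15 for Foxp3, -0.11 for Il2ra. Without cells with at least 2 UMIs of other lineage markers, the mitochondrial ratio was 0.14 for S1pr1, -0.024 for Ccr9, -0.29 for Mki67, 0.087 for Foxp3, -0.0064 for Il2ra, -0.0072 for genotype, and the nuclear ratio was 0.24 for Tnfrsf9, 0.049 for Ccr9, 0.28 for Mki67, -0.16 for Foxp3, -0.015 for Il2ra, 0.013 for genotype. Without cells with at least 10 such UMIs, the mitochondrial ratio was 0.17 for S1pr1, 0.13 for Foxp3, 0.021 for genotype, and the nuclear ratio was 0.22 for Tnfrsf9, 0.072 for Ccr9, 0.24 for Mki67, -0.074 for Il2ra, 0.0072 for genotype. As the median over members, the mitochondrial ratio was 0.018 for Tnfrsf9, 0.12 for S1pr1, -0.015 for Ccr9, 0.092 for Foxp3, 0.044 for genotype, and the nuclear ratio was 0.22 for Tnfrsf9, -0.32 for S1pr1, 0.094 for Ccr9, 0.25 for Mki67, -0.24 for Foxp3, -0.0088 for genotype. With cells thinned to 3000 UMIs, the mitochondrial ratio was 0.12 for S1pr1, -0.014 for Ccr9, -0.22 for Mki67, 0.086 for Foxp3, 0.093 for Il2ra, and the nuclear ratio was -0.25 for S1pr1, 0.038 for Ccr9, 0.23 for Mki67, -0.079 for Il2ra, 0.022 for genotype. Without the cells that carried both hashtags, the nuclear ratio was 0.091 for Ccr9. Within S1pr1-detected cells, the mitochondrial ratio was 0.066 for Foxp3, 0.10 for Il2ra, and the nuclear ratio was -0.090 for Foxp3, -0.077 for Il2ra. Within cells with no S1pr1 UMI, the mitochondrial ratio was 0.088 for Foxp3, 0.025 for Il2ra, and the nuclear ratio was -0.17 for Foxp3, 0.0017 for Il2ra. In cells with no Mki67 UMI, the nuclear ratio was 0.012 for genotype. The sign changed for the mitochondrial sum of Tnfrsf9 as a median over members, of Ccr9 in Foxp3eGFP cells alone, of Foxp3 with other state markers left out, and of Il2ra and genotype without cells with at least 2 UMIs of other lineage markers, a filter that took out 560 of 1041 cells with and 1778 of 3597 without Il2ra, and 1117 of 2244 Lta-/- and 1086 of 2209 Foxp3eGFP cells, and for the nuclear sum of Il2ra in cells without S1pr1. Signs of the S1pr1, Tnfrsf9, Foxp3 and Mki67 nuclear sums did not change under any alternative run. Of single members named, beside Mki67 and matched for depth, Ndufa12 was at -0.16 and Atp5g1 at -0.40, and Ndufaf4 beside Il2ra at -0.39 with other state markers left out. The causes were not tested. The S1pr1 split and the limit of 10 UMIs were chosen after seeing the data. No paired analysis was possible because no result comes from a test and each genotype has 1 mouse; for the marker comparisons the ratios within each mouse are given instead. Depth limits the rare isoforms and mt-Nd6, and doublets within a genotype cannot be found by hashtag.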
